A study of Rattus norvegicus with 6 samples.

Results

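The synaptic vesicle release genes were a set of 43 rat genes whose proteins dock, prime, fuse and recycle the vesicles that hold neurotransmitter. They were taken by name, with no cutoff on a measured value, and 42 of them had a probe among the 15168 named genes on the array. The choice was made with earlier results of these data known, which limits what shares over the set can show. For Syp, which encodes the vesicle protein synaptophysin, no probe accession matched, so it is not analysed here. A gene with several probes was represented by the one with the highest mean signal over the 6 arrays, and all 42 genes were well above background on all 6 arrays and were tested.

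Messenger RNA was measured in hippocampal tissue of adult male Sprague Dawley (SD) rats on single-colour Agilent arrays, 1 array per sample. In the AD group (3 arrays) oligomers of Aβ1-42, the long form of the amyloid-beta peptide, had been injected into the lateral ventricles. The injection was made on both sides through a steel cannula. The Sham group (3 arrays) held the sham controls, and the paper does not describe what they received. The labels name no genetic change in either group, and AD names a model made by injected peptide and not an inherited disease. The labels do not tie an array to an animal, and the time between injection and sampling is not given in the sources used here, so the p-values below cover only how these samples differed among themselves, which may in part be technical.

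Transmitter release starts when an action potential opens calcium channels beside a docked vesicle. Calcium binds a synaptotagmin on the vesicle, and the SNARE proteins of the vesicle and the plasma membrane zip together and fuse the membranes. Complexins hold and trigger that step, NSF and its SNAP adaptors take the used SNARE complexes apart, Rab3 proteins and the large scaffolds of the active zone bring vesicles to the release site, and dynamin, amphiphysin and synaptojanin return membrane to the vesicle pool. In the hippocampus both the excitatory principal cells and the inhibitory interneurons use this machinery, often with different members of the same family.

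All values below are log2 levels, the log2 of the processed signal minus the 75th percentile of that array, so that a level of 0 lies at the 75th percentile. A change is the mean of the 3 AD levels minus the mean of the 3 Sham levels, with its standard error (SE), and a gene was called up-regulated or down-regulated where the adjusted p from limma, Benjamini-Hochberg adjusted over all 22820 tested probes, was under 0.05. Levels of different genes come from different probes, so which gene was the more abundant was not asked. For pairs of family members only the change in the difference of their levels was used.

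The comparison asked which of these mRNAs differed in the hippocampus after Aβ1-42. The median change over the 42 genes was -0.19, and 29 (69.0%) were lower in AD on average and 13 higher, against 55.5% lower over all named genes tested. The 10 genes Rab3c, Syt1, Synj1, Syt11, Napb, Rab3b, Syt4, Cplx1, Dnm1 and Sv2b were called down-regulated, and 1 gene, Stxbp5, was called up-regulated. Only Rab3c, a small GTPase of the vesicle surface, changed by more than 2-fold among the 42. The calls had 23.8% of the genes lower and 2.38% higher, against 10.8% lower and 4.09% higher over the 11968 named genes tested with 1 probe each, and 8.39% lower and 4.16% higher over all 22820 probes. The median change over the named genes was -0.048 and over all tested probes -0.011.

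Without regard to the threshold, all 3 AD levels lay below all 3 Sham levels for 23 of the 42 genes (54.8%) and above them for 3 (7.14%), and the groups overlapped for 16. The same counts over the named genes were 28.3% below and 15.7% above. Measured against the Sham mean of each gene, the median over the 42 genes stood at -0.27, -0.24 and -0.21 for the AD arrays and at -0.035, -0.069 and 0.072 for the Sham arrays, replicates 1 to 3 in order. The AD arrays were thus alike, and each lay below every Sham array. The spread between replicates was small beside the largest changes, with a median SD per gene of 0.089 in AD and 0.12 in Sham.

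Of 21 other settings tried with 1 probe per gene, 6 change only the test or the probes tested and leave each gene's change as reported, and 1 repeats another. Under the 14 that could move a change, the 11 called genes kept their direction. The groups did not overlap for any of these genes, so settings that only leave out or reweight arrays could not turn a direction. Only a change of scaling, of background correction or to the deposited values could. The calls themselves rest on adjusted p-values near the threshold. Leaving out any 1 array other than Sham replicate 3 left 0 of the 42 genes called by limma. At an unadjusted limma p under 0.05, 14 to 16 were then lower and 1 to 2 higher. Of all 22820 probes, 4863 to 6453 were under that p in either direction. All 3 AD arrays were scanned together and no Sham array with them, so scan and group cannot be told apart. Sham replicate 3 was scanned alone on a second day, and its 75th percentile signal was 429 against 753 to 932 on the others. Within the first day, which leaves out that array, 9 genes were called lower and 2 higher, with a median change of -0.12. Of all 22820 probes 2463 were then called lower and 1990 higher. With scan as a random block 0 genes were called, with 12 lower and 1 higher at an unadjusted limma p under 0.05. Under that block 3673 of the 22820 probes were below that p in either direction.

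**Figure D1:**
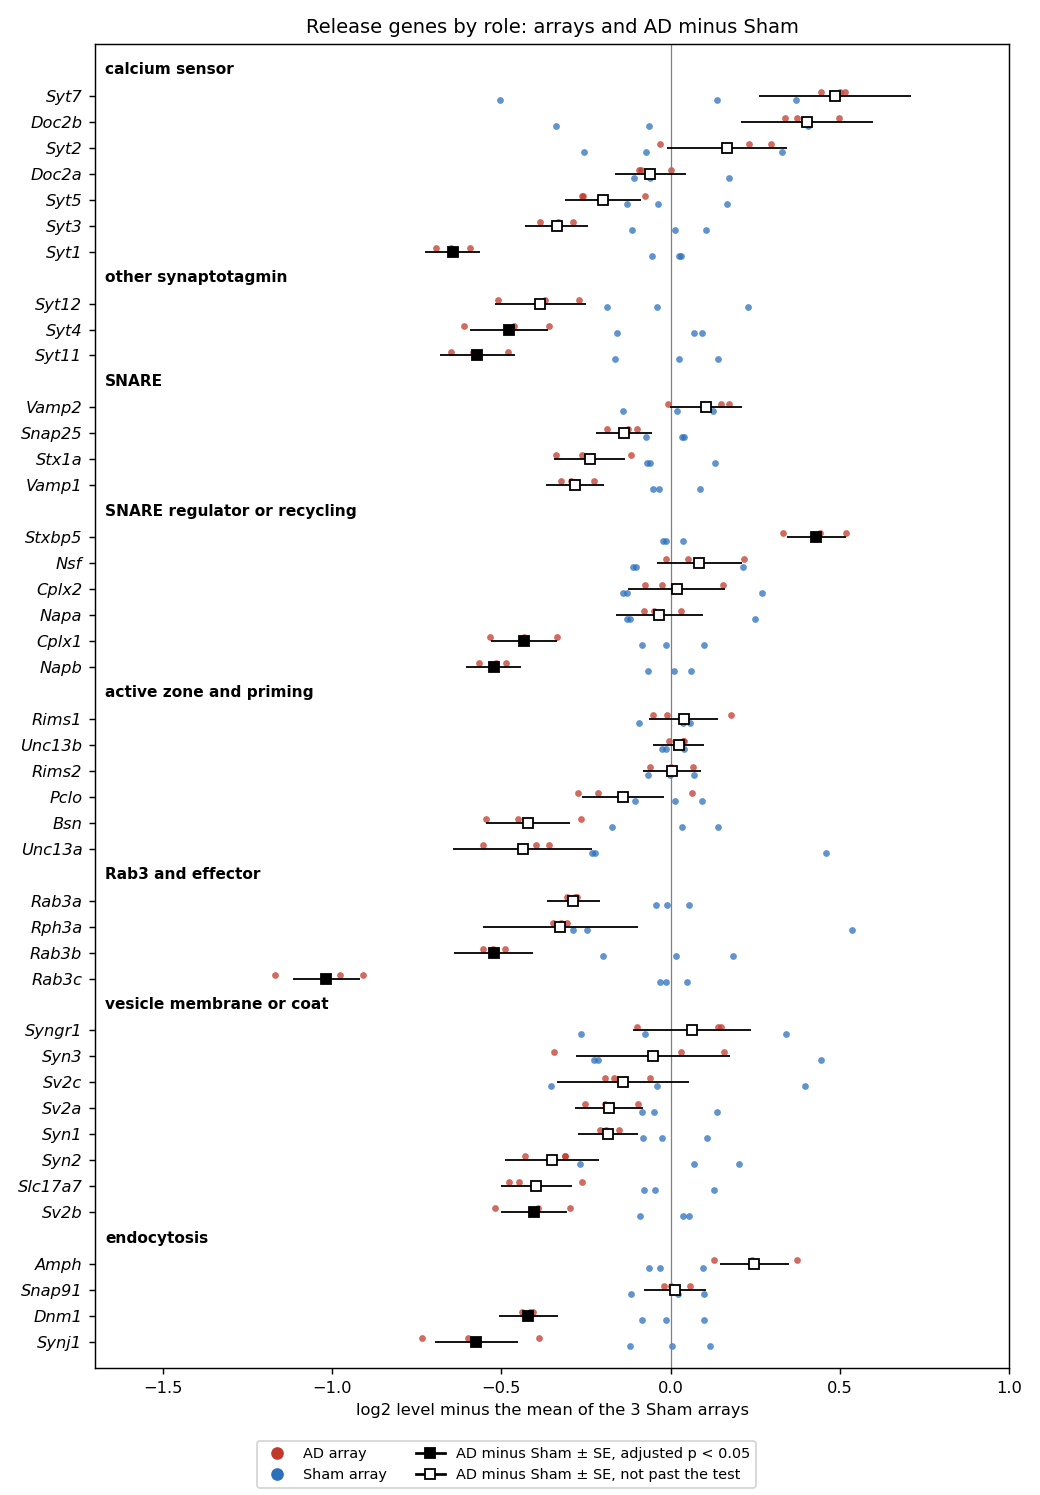
Log2 level of the 42 release genes with a probe on each array, minus that gene's mean over the 3 Sham arrays, grouped by role (red, AD arrays; blue, Sham arrays; squares, change of AD minus Sham with its SE as a line, filled where the limma adjusted p was under 0.05). Rab3c lies farthest to the left at -1.02, the genes of the Rab3 row group all lie left of 0, and Stxbp5 is the filled square on the right.

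The Rab3 group held the gene with the largest change of the 42. Rab3a, Rab3b and Rab3c are GTPases that sit on the vesicle and help to tether it at the active zone, and Rph3a encodes rabphilin, an effector that binds the active form. In all 4 genes every AD level lay below every Sham level, so leaving out or reweighting arrays could not turn their direction. The 4 also kept it under the settings that change the scaling, the background correction or the values used. Rab3c stood at -0.57, -0.50 and -0.76 in AD and at 0.38, 0.39 and 0.46 in Sham, with the arrays here and below in the order of replicates 1 to 3. The AD arrays lay far below the Sham arrays, with replicate 3 the lowest of the AD group. The change was -1.02 ± 0.099 (SE, n = 3 per group, limma adjusted p = 0.0183), which is 2.02-fold lower.

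Rab3b measured -2.54, -2.51 and -2.48 in AD and -1.80, -2.19 and -1.97 in Sham, replicates 1 to 3 in each. The 3 AD levels nearly coincided, the Sham levels were more spread, and the groups did not overlap. Its change was -0.52 ± 0.12 (limma adjusted p = 0.0409). Rab3a, the most studied Rab3 of brain synapses, changed by -0.29 ± 0.078 and missed the threshold (limma adjusted p = 0.0619). Rph3a had a change of -0.33 ± 0.23 that rested on Sham replicate 3, which lay far above the other 2 Sham arrays, and the change was -0.059 without it.

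The changes of the 3 Rab3 genes were also set against each other. On each array the level of Rab3c was taken from that of Rab3a, and this difference was compared between the groups. It was higher in AD by 0.73 ± 0.096, with no overlap between groups. The difference of Rab3b minus Rab3c was higher in AD by 0.49 ± 0.15, again without overlap. With 3 arrays against 3, the smallest p an exact two-sided permutation test can give is 0.1, and both pairs reached it. In all, 18 pairs of family members were compared in this way, 10 did not overlap, and their lowest adjusted p was 0.18. Because this permutation test cannot give a p below 0.1, no pair could pass the threshold whatever its levels. Its p-values, here and below, therefore decide nothing for any pair. Several pairs share a gene, as those of the 3 Rab3 genes do, so the 18 are not independent. The share without overlap was not set against that of other gene pairs.

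Among the 7 calcium sensors, 1, Syt1, was called down-regulated. Synaptotagmin 1 is the sensor of fast, synchronous release in most forebrain neurons, synaptotagmin 2 serves the same purpose at other fast synapses, and synaptotagmin 7 and the Doc2 proteins bind calcium more tightly and are linked to slower and spontaneous release. Syt1 levels were 0.98, 1.03 and 1.08 in AD and 1.71, 1.70 and 1.62 in Sham, replicates 1 to 3. Both groups were tight and lay well apart. The change was -0.64 ± 0.081 (limma adjusted p = 0.0189), 1.56-fold lower.

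No other calcium sensor passed the test. Syt7 was measured at -1.59, -1.65 and -1.58 in AD and at -2.60, -1.96 and -1.72 in Sham. The AD arrays all lay above the Sham arrays, but the Sham levels covered a wide range and the change of 0.49 ± 0.22 did not pass (limma adjusted p = 0.199). Doc2b gave -2.78, -2.94 and -2.90 in AD and -3.34, -3.62 and -2.87 in Sham. Sham replicate 3 lay among the AD arrays, so the groups overlapped, and the change of 0.40 ± 0.19 did not pass either (limma adjusted p = 0.215). With that array left out Doc2b was called higher.

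Of the remaining sensors, Syt3 had a change of -0.34 (limma adjusted p = 0.0644), with no overlap, Syt5 of -0.20 (-0.051 after quantile normalization), Doc2a of -0.060 and Syt2 of 0.17. The median over the 7 sensors was -0.060, so the group as a whole sat near the median of all named genes while Syt1 lay far below it. Syt1 and Syt2, the pair of fast sensors, differed in their changes by -0.81 ± 0.22 without overlap (exact permutation p = 0.1, adjusted p = 0.18).

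Synaptotagmins 4, 11 and 12 have no calcium-triggered role like that of synaptotagmin 1, since 4 and 11 lack a residue needed to bind calcium in a C2 domain. All 3 genes had every AD level below every Sham level and a median change of -0.48. Their direction also held where the scaling, the background correction or the values used were changed, the only settings that could turn it. Syt11 stood at 0.57, 0.67 and 0.51 in AD against 1.30, 1.18 and 0.99 in Sham. Replicate 3 was the lowest array in both groups, and the change was -0.57 ± 0.11 (limma adjusted p = 0.0312).

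Syt4 stood at 2.54, 2.64 and 2.39 in AD against 3.07, 3.09 and 2.84 in Sham. The pattern over the arrays was much like that of Syt11, and the difference between their changes, 0.093 ± 0.049, overlapped between groups (exact permutation p = 0.2). The change of Syt4 was -0.48 ± 0.11 (limma adjusted p = 0.0475), only just past the threshold, and it was not called after quantile normalization (-0.33). A second, dimmer Syt4 probe changed by -0.035 ± 0.094, so the fall was seen with the brighter probe alone. Syt12, an activity-regulated synaptotagmin, changed by -0.38 and missed the threshold (limma adjusted p = 0.113).

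Of the 4 core SNARE genes 0 were called by limma, with 1, Vamp1, at an unadjusted p under 0.05, and their median change was -0.19, like that of the whole set. SNAP-25 and syntaxin 1A form the plasma membrane side of the fusion complex, and VAMP1 and VAMP2 (synaptobrevins) the vesicle side. Vamp1 had a change of -0.28 ± 0.085 (limma adjusted p = 0.0802), Stx1a of -0.24 ± 0.10 and Snap25 of -0.14 ± 0.082, all without overlap between groups, and Vamp2 of 0.10 ± 0.11 with overlap. Quantile normalization brought Vamp1 to -0.052 and Stx1a to -0.062. The directions of Snap25 and Vamp2 were not stable: Snap25 read 0.062 after quantile normalization and Vamp2 -0.0077 without AD replicates 1 and 3. The 2 synaptobrevins differed in their changes by -0.39 ± 0.12 without overlap (exact permutation p = 0.1, adjusted p = 0.18). A dimmer probe gave 0.15 for Vamp1 and 0.053 for Snap25.

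Among the proteins that act on SNARE complexes, changes went both ways. Complexins clamp and then trigger the assembled complex. Cplx1 had levels of 5.03, 5.13 and 4.93 in AD and of 5.45, 5.38 and 5.56 in Sham. The groups were separated by more than the range of either, and the change was -0.43 ± 0.097 (limma adjusted p = 0.0408). After quantile normalization it was -0.21 (limma adjusted p = 0.11). The deposited values, whose changes were close to those after quantile normalization, also gave -0.21 (limma adjusted p = 0.112). Its dimmer probe changed by -0.15 ± 0.19 with overlap. Cplx2, the complexin more typical of excitatory principal cells, had a change of 0.018 ± 0.14, and the difference between the pair was -0.45 ± 0.091 without overlap (exact permutation p = 0.1, adjusted p = 0.18).

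Napb encodes beta-SNAP, a brain form of the adaptor that lets the ATPase NSF pull SNARE complexes apart. Its levels were -0.68, -0.76 and -0.71 in AD and -0.14, -0.26 and -0.19 in Sham. All 6 arrays lay close to their group means, which gave a change of -0.52 ± 0.082 (limma adjusted p = 0.0222). Napa, which encodes the widely expressed alpha-SNAP, had a change of -0.033 ± 0.13, and Nsf one of 0.085 ± 0.13. The change of Napa exceeded that of Napb by 0.49 ± 0.13 without overlap (exact permutation p = 0.1, adjusted p = 0.18).

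Stxbp5 was the only one of the 42 genes called up-regulated. It encodes tomosyn, which carries a SNARE motif of its own and occupies syntaxin and SNAP-25 in place of the vesicle SNARE, so that it restrains release. Levels were -0.73, -0.65 and -0.84 in AD and -1.18, -1.13 and -1.19 in Sham. The 3 Sham arrays nearly coincided, and every AD array stood clear of them. The change was 0.43 ± 0.087 (limma adjusted p = 0.0335), 1.35-fold higher.

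**Figure D2:**
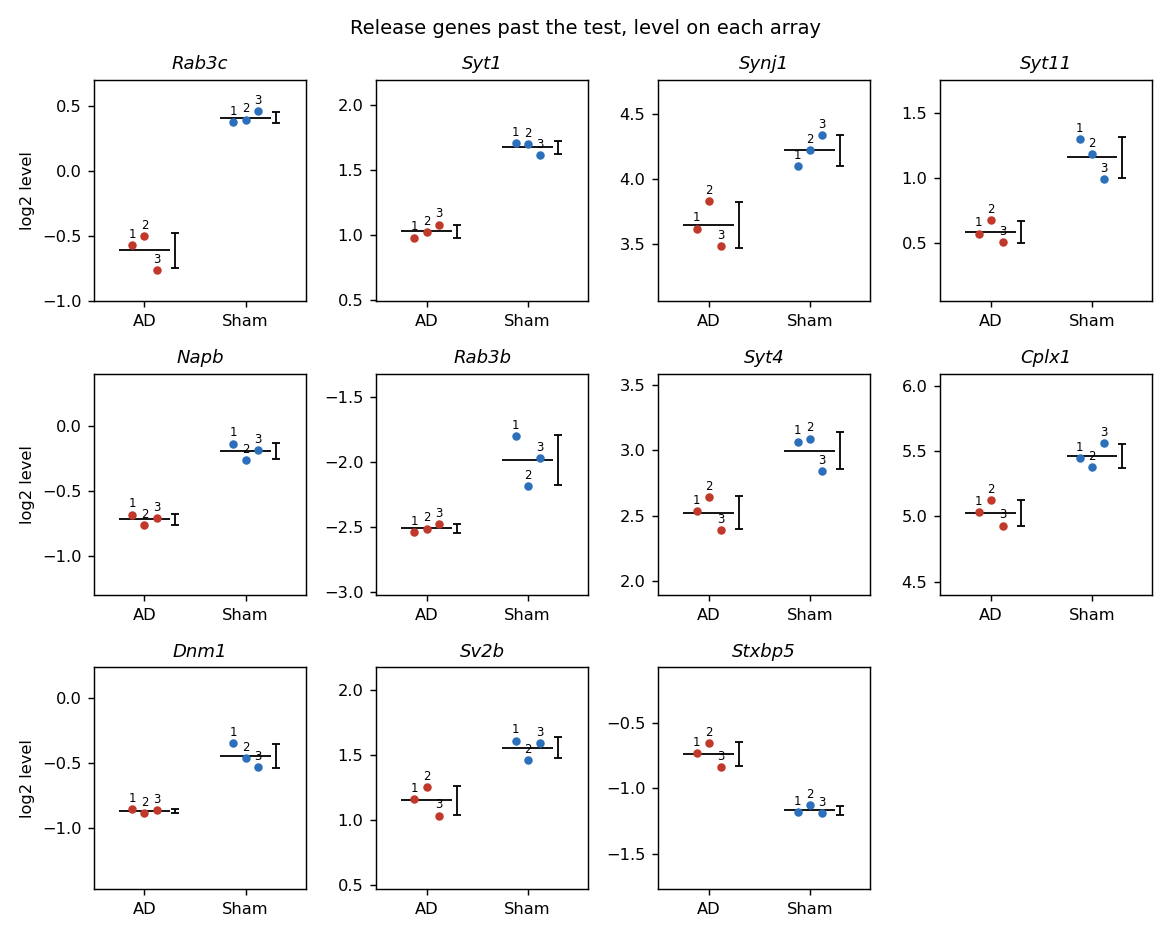
Log2 level, relative to the 75th percentile of the array, of the 11 called release genes on each of the 3 AD arrays (red) and 3 Sham arrays (blue), with replicate numbers; horizontal bars are group means and vertical bars the SD, and every panel spans the same number of log2 units. The groups do not overlap in any panel, the gap is widest for Rab3c, and Stxbp5 is the panel with the AD arrays on top.

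The scaffolds and priming factors of the active zone had a median change of -0.070, and 0 of the 6 genes were called by limma, with 1, Bsn, at an unadjusted p under 0.05. Bassoon and piccolo are giant scaffold proteins, RIM proteins link vesicles to calcium channels, and the Munc13 proteins open syntaxin for fusion. Bsn was measured at 4.30, 4.49 and 4.21 in AD and at 4.58, 4.90 and 4.79 in Sham. The AD arrays were lower without overlap, and the change of -0.42 ± 0.12 missed the threshold (limma adjusted p = 0.0765). A dimmer Bsn probe gave -0.11, and the brighter one gave -0.21 after quantile normalization.

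Unc13a, which encodes Munc13-1, gave -2.64, -2.60 and -2.79 in AD and -2.47, -2.46 and -1.78 in Sham. Sham replicate 3 stood well above all other arrays, and the change of -0.44 ± 0.20 rested largely on it (limma adjusted p = 0.203; -0.21 without that array). Unc13b had a change of 0.023, Rims1 of 0.038, Rims2 of 0.0024 and Pclo of -0.14, all with overlap. The probes of Rims2 disagreed, since a dimmer one changed by -0.37 ± 0.099 without overlap (limma adjusted p = 0.0603), and the dimmer Pclo probe changed by -0.27.

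Proteins of the vesicle membrane and its coat made up the largest role group, with 8 measured genes, 1 called and a median change of -0.18. SV2 proteins are transporter-like glycoproteins of the vesicle, synapsins tie vesicles to each other and to actin, and Slc17a7 encodes VGLUT1, which fills vesicles with glutamate. Sv2b levels were 1.16, 1.26 and 1.03 in AD and 1.61, 1.46 and 1.59 in Sham. The groups did not overlap, and the change of -0.40 ± 0.098 only just passed (limma adjusted p = 0.0485). It was -0.31 and not called after quantile normalization. Sv2a had a change of -0.18 without overlap and Sv2c one of -0.14 with overlap.

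Slc17a7 fell just outside the threshold. Its levels were -2.68, -2.46 and -2.65 in AD and -2.24, -2.28 and -2.07 in Sham, with every AD array below every Sham array. The change was -0.40 ± 0.10 (limma adjusted p = 0.0593), close in size to that of Sv2b. Syn2 had a change of -0.35 and Syn1 of -0.18, both without overlap and both short of the threshold, and Syn3 of -0.053 with overlap. Syngr1, which encodes synaptogyrin 1, had a change of 0.063 with overlap.

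Of the 4 endocytosis genes, 2 (50%, against 10.8% over all named genes) were called lower and 0 higher. The other 2, Amph and Snap91, were higher on average but were not called. Synaptojanin 1 is the lipid phosphatase that sheds the coat of a retrieved vesicle, and dynamin 1 is the GTPase that pinches it off. Synj1 stood at 3.62, 3.83 and 3.49 in AD and at 4.10, 4.22 and 4.34 in Sham, without overlap. The change was -0.57 ± 0.12 (limma adjusted p = 0.0371). It was -0.37 and not called after quantile normalization, and a dimmer probe changed by -0.20 ± 0.14 with overlap.

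Dnm1 stood at -0.85, -0.88 and -0.86 in AD and at -0.35, -0.46 and -0.53 in Sham. The AD arrays were nearly identical, and the change was -0.42 ± 0.086 (limma adjusted p = 0.0339). Amph, which encodes the dynamin partner amphiphysin, had a change of 0.25 ± 0.10 with every AD array above every Sham array (limma adjusted p = 0.16). Snap91, which encodes the clathrin assembly protein AP180, had a change of 0.013 with overlap.

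Promoter sequence was available for 32 of the 42 genes, all 11 called ones among them, in RefSeq on the assembly GRCr8. Each covers 250 bases before to 50 bases after the annotated gene start, and the 4 shown belong to the called genes with the largest changes, which fell together in AD. The sequences are printed 5′ to 3′ on the strand of the gene, with any GC box, GGGCGG or its reverse complement CCGCCC, in capitals. They lie at chr2:43575894-43576193 (Rab3c), chr7:46244164-46244463 (Syt1), chr11:43755477-43755776 (Synj1) and chr2:176529726-176530025 (Syt11), all on the minus strand.
Rab3c: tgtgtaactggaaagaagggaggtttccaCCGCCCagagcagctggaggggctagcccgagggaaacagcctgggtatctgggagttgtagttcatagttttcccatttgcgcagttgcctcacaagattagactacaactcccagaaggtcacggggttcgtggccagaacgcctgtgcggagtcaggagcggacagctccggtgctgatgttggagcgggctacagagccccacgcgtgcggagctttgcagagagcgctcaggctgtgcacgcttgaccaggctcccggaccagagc
Syt1: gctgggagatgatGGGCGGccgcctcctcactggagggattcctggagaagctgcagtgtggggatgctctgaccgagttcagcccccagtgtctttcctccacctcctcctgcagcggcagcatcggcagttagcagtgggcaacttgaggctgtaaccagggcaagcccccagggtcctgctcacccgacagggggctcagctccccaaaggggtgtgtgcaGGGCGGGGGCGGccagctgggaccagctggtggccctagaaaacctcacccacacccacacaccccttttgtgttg
Synj1: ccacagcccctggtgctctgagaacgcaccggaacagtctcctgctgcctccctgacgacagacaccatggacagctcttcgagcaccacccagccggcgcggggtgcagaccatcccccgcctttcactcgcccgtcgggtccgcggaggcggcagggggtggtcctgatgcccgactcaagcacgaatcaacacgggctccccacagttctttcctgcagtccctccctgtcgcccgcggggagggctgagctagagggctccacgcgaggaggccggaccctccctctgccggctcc
Syt11: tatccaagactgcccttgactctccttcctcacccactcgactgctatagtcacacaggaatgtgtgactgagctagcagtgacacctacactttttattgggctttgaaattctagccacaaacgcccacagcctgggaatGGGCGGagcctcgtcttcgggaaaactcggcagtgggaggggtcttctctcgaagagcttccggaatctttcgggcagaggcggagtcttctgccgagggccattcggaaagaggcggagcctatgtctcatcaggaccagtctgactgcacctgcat

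Syt1 held 3 GC boxes, which begin at -237, -26 and -20 from the start site, with the last pair next to each other. Rab3c held 1 on the opposite strand at -221, Syt11 held 1 at -108, and Synj1 held none in this window. On both strands, 7 of the 11 called genes (63.6%) and 24 of the 32 genes (75%) had a GC box, against 34.9% of all 27457 promoters of that length. The median GC content was 62.7% for the called genes, 64.5% for the 32 and 52.3% for all promoters, so the count of boxes comes with a difference in base composition. The letters TATAAA were in 0 of the 32 and in 14.3% of all promoters. The cAMP response element TGACGTCA was in 3 of the 32 (Napa, Vamp1 and Syn1, none of them called) and in 1.91% of all promoters.

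Other genes of the release cycle, 84 outside the set, were listed for comparison, of which 73 had a probe and 70 were tested. Their median change was -0.079, 6 (8.57%) were called down-regulated and 4 (5.71%) up-regulated, near the 10.8% and 4.09% over all named genes. Rab27a, a GTPase related to Rab3, fell by 0.87 ± 0.18 (limma adjusted p = 0.0364), Vamp4 by 0.72 ± 0.12 and Cadps, which encodes the priming factor CAPS1, by 0.60 ± 0.10. Smaller falls were called for Ap2b1, a subunit of the clathrin adaptor (-0.50), for Vamp7 (-0.43) and for Dnm3, a further dynamin (-0.42).

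The 4 called rises included another priming factor. Unc13c, which encodes Munc13-3, had levels of -1.99, -1.95 and -2.08 in AD and of -2.80, -2.86 and -2.74 in Sham, so it rose by 0.80 ± 0.085 (limma adjusted p = 0.0183) while Unc13a and Unc13b did not pass. Cask, an active zone scaffold kinase, rose by 0.55, Sh3gl3, an endophilin, by 0.53 and Rph3al, a relative of rabphilin, by 0.46. All AD levels lay below all Sham levels for 20 of the 73 (27.4%) and above them for 11 (15.1%), near the 28.3% and 15.7% over all named genes.

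Markers of neurons other than release genes moved in the same comparison. Of 14 pan-neuronal genes with a probe, 6 (42.9%) were called lower and 0 higher, against 10.8% and 4.09% over all named genes, the median change was -0.32, and the level summed over the list on the linear scale, in units of each array's 75th percentile, ran from 143 to 156 in AD and from 183 to 212 in Sham. Of 15 markers of GABAergic interneurons, 8 (53.3%) were called lower and 0 higher, with a median change of -0.71 and sums of 77.3 to 81.9 in AD and 135 to 139 in Sham. Gad1, which makes GABA, fell by 0.81 and Slc32a1, which loads it into vesicles, by 0.86, while the interneuron marker Pvalb had a change of -0.049. The sum over the release genes ran from 202 to 227 in AD and from 244 to 275 in Sham. The genes of SNARE regulation and recycling alone summed to 89.6 to 104 in AD and 98.7 to 122 in Sham.

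Markers of hippocampal principal cells were present on the arrays, as the label hippocampal tissue implies, and all 14 of those with a probe were tested. Their median change was 0.16, with 10 higher and 4 lower on average, and their sums ran from 39.4 to 43.6 in AD and from 46.7 to 49.9 in Sham. A linear sum is set mostly by the brightest genes, so here it fell while most of the markers rose. In a bulk tissue sample fewer cells of a type and less RNA per cell cannot be told apart, and the part that neuron content has in the release genes was not tested.

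Several lists from other cells had called genes on the higher side, although their summed levels overlapped between the groups or nearly so. Of 14 oligodendrocyte genes 6 (42.9%, against 4.09% over all named genes) were called higher and 0 lower (median 0.43; sums 110 to 129 in AD and 118 to 170 in Sham), and of 12 endothelial and pericyte genes 3 (25%) were called higher and 0 lower (median 0.28; sums 19.6 to 21.9 and 12.6 to 19.4). Striatum and thalamus genes had 2 of 11 (18.2%) called higher, a median of 0.35, and sums of 4.83 to 6.15 in AD and 4.83 to 5.13 in Sham. Choroid plexus genes had 0 of 12 tested called by limma, but their medians against the Sham mean were 3.43, 0.58 and 4.26 on AD replicates 1 to 3 (sums 83.4 to 157 in AD and 28.4 to 105 in Sham). Without AD replicates 1 and 3, where those genes were highest, 1 AD array is left, assumed to vary like the Sham arrays, and the median change of the release genes was -0.24. With 1 AD array the spread within AD could not be measured, so only the size of that change is read. Astrocyte (median 0.074) and microglia genes (median -0.061) had 0 called in either direction by limma. The part of these tissues in the release gene result was not tested.

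**Figure D3:**
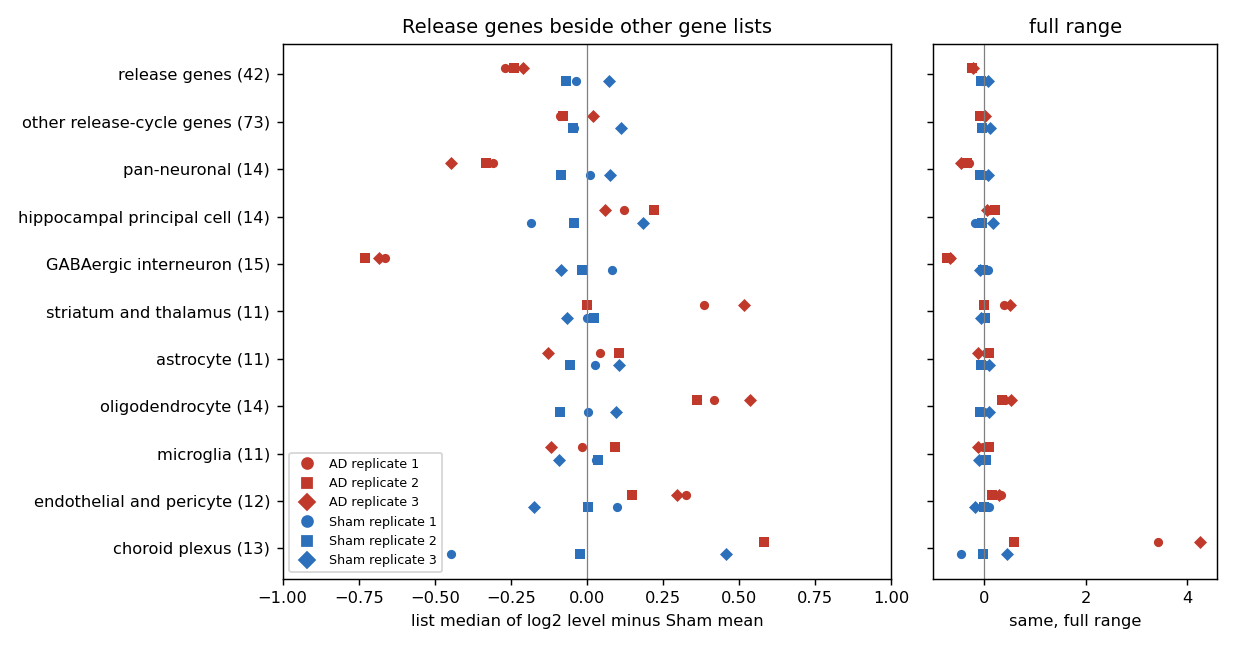
Median over each gene list (number of genes with a probe in brackets) of the log2 level minus the gene's mean over the 3 Sham arrays, 1 point per array (red, AD; blue, Sham; shape, replicate); the right panel repeats the points on a wider axis because 2 AD points of the choroid plexus list lie beyond the left one. The 3 AD arrays lie at -0.27, -0.24 and -0.21 for the release genes, and lower still for the pan-neuronal and GABAergic lists.

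Sham replicate 3 took part in many of the wide Sham ranges described above. It was the highest of the 6 arrays for 21 of the 42 genes, Sham replicate 1 for 10, and AD replicates 1 to 3 for 5, 2 and 1. AD replicate 3 was the lowest array for 14 genes and Sham replicate 2 for 9. With Sham replicate 3 left out, Rab3b and Sv2b lost their call and Doc2b (higher) and Syn2 (lower) gained one, and the other 9 called genes kept theirs.

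Across the 14 settings that could move a change, the 11 called genes had 154 values, all with the same sign as reported. Because their groups did not overlap, leaving out or reweighting arrays could not turn a sign, so much of that count was fixed in advance. Across all 21 settings, which include others that alter the test alone, 81 of 231 values were past the test. Rab3c ranged from -1.07 to -0.91 and was past the test in 11 settings, Syt1 from -0.70 to -0.55 in 10 and Napb from -0.57 to -0.44 in 10. At the other end Sv2b ranged from -0.46 to -0.30 and was past the test in 3. Stxbp5 ranged from 0.35 to 0.52 and was past the test in 8. Of the genes not called, Rab3a was past the test in 5 settings, Syt3 in 4 and Syn2 and Doc2b in 3 each.

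**Figure D4:**
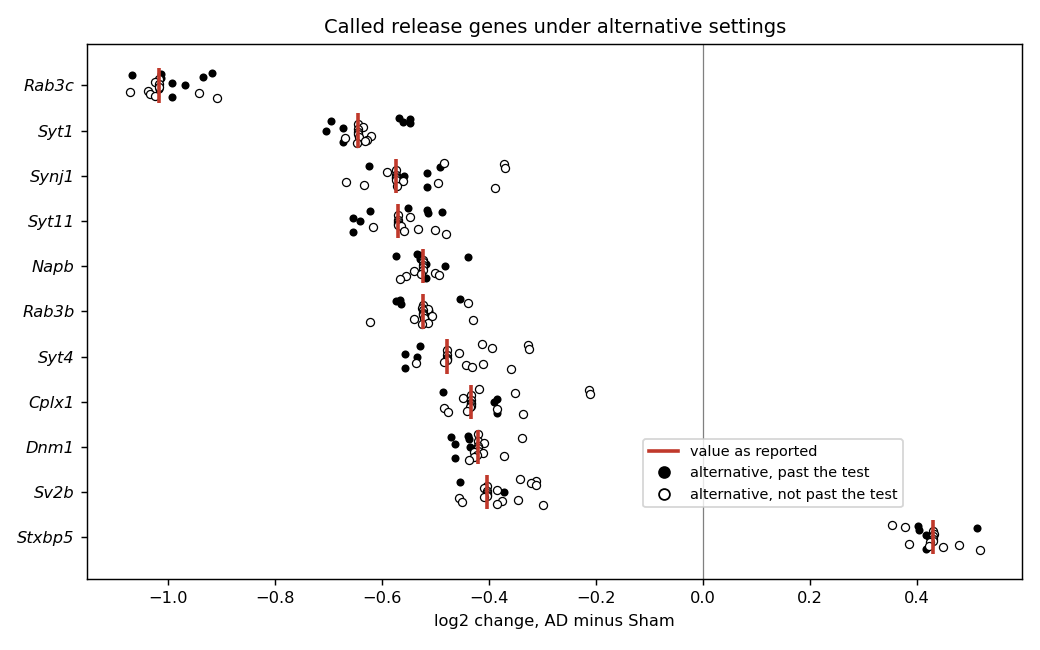
Log2 change of AD minus Sham of the 11 called release genes under the reported setting (red bar) and each of 21 other settings (filled circles, past the test of that setting; open circles, not past it); 6 of these keep the reported change by construction and fall on the red bar. All points of the 10 down-regulated genes lie below 0 and all points of Stxbp5 above it, and the open circles outnumber the filled ones.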

How the data were processed

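mRNA of 6 rat hippocampal samples (AD, 3; Sham, 3; groups from the sample titles) was hybridised to rat arrays of the single-colour Agilent design. The deposited scanner output, made with Agilent Feature Extraction 11.0.1.1 per the file headers, holds background-subtracted spot intensity on a linear scale. The authors also deposited processed values on a log2 scale with the scaling unstated. Each column had a median of 6.57, the values ran in the direction of the scanner intensity and genes were not centred. Its columns AD 2 and AD 3 matched each other's scanner arrays (r of 0.994 and 0.999), which leaves comparisons of the groups unaffected.

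Each array had 44254 spots, 42877 of them not controls. Controls were dropped, as were spots flagged as outliers (400 to 559 on an array), 0 spots were saturated, and repeated spots were averaged. Levels were log2 intensity minus its 75th percentile on that array, controls excluded (429 to 932 on the linear scale). Of 30367 probes, 70.8% to 79.7% per array were well above background, and the 22820 that were so on at least 3 of 6 arrays were tested. Probes were named through RefSeq accessions (GRCr8), which named 18005 probes (59.3%).

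AD was compared with Sham in R 4.3.3 with the limma package, version 3.58.1 (lmFit, then eBayes), with no covariate and two-sided. The p-values of the 22820 probes were adjusted together by the Benjamini-Hochberg procedure, and 0.05 was the threshold. The scripts were tested on simulated data. The number of arrays limits the precision. Family members were compared by an exact two-sided permutation test over arrays. Every gene of the set with a probe is named, with array values for each called gene and for the 5 uncalled genes with the largest change, and for other release-cycle genes the 4 largest called rises and 6 largest called falls. The genes of the set, the comparison lists and the pairs were chosen with earlier results of these data known. Alternatives were the background correction (normexp on the median spot signal, offset 50), quantile and median scaling, the percentile over detected probes, the deposited values, the filter, scan and slide position as blocks, array weights, the replicate block, the methods' t-test, each array left out in turn, all probes of a gene, and leaving out AD replicates 1 and 3. Calls within the list of hippocampal principal cell markers are not reported here. The last alternative, the signal column for normexp and the gene-by-gene method for array weights were chosen after seeing the data.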

Additional observations from a re-analysis of the deposited data

How the results depend on the processing

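Of 21 alternatives with 1 probe per gene, 14 could move a change, and under these the 11 called release genes kept their direction. For genes without overlap between groups, those that only leave out or reweight arrays could not turn it. No release gene was called under 10 of the 21. As reported, 10 release genes were called lower and 1 higher, with a median change of -0.19, other release-cycle genes 6 and 4, and probes 1915 and 949. A further alternative took all probes of a gene, and it also gave 10 release genes lower and 1 higher. The dimmer probes of the called genes Syt4, Cplx1 and Synj1 overlapped between groups and were not called. With normexp, which moved the median of all tested probes from -0.011 to -0.15, release genes were called 5 lower and 0 higher with a median of -0.24, 1 other release-cycle gene was called higher, and 1459 probes were lower against 309 higher. With the 75th percentile over detected probes the release genes were 5 lower with a median of -0.11, other release-cycle genes 3 lower and 7 higher, and probes 1253 lower and 1425 higher, so the split of probe calls turned. Median scaling gave 12 release genes lower and 0 higher (probes 2152 and 689), and the deposited values a median of -0.14. Quantile normalization and the deposited values each lost the calls of Cplx1, Sv2b, Synj1 and Syt4 and gained Rab3a and Syt3. Their medians, -0.138 and -0.136, were nearly the same, so these settings count for little more than 1. Array weights gave 17 lower and 5 higher, other release-cycle genes 20 and 10, and probes 4792 and 3980. Entering the scan day as a fixed term, which equals leaving out Sham replicate 3, gave 9 lower and 2 higher and a median of -0.12. Probes were then called 2463 lower and 1990 higher. The methods' t-test after Benjamini-Hochberg gave 5 release genes lower (probes 1266 lower and 579 higher). At the methods' thresholds it gave 1 release gene lower (Rab3c) and 0 higher, 0 other release-cycle genes, and 154 probes lower and 175 higher. 

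With no filter on dim probes, scan as a random block, slide position as a block, the replicate block, or AD replicates 1 and 3 left out, 0 probes, release genes and other release-cycle genes were called in either direction by limma. At an unadjusted limma p under 0.05, 16 release genes were lower and 1 higher with no filter, and 12 and 1 with the random block. Slide position gave 15 and 1, and the replicate block 16 and 1. The same threshold took in 7091 of 30367 probes with no filter. Of 22820 probes it took in 3673 with the random block, 6491 with slide position and 6492 with the replicate block, in either direction. Without AD replicates 1 and 3, 1 AD array is left and is assumed to vary like the Sham arrays, and the median change was -0.24. The cause of the lost calls was not tested. No pairing by replicate number was assumed. Same-numbered arrays deviated from their group means with correlations of 0.028, 0.072 and 0.14, and differently numbered ones with correlations from -0.12 to 0.064. Whether same-numbered arrays were paired was not tested. Over the 6 arrays left out in turn, release genes called ranged from 0 to 9 lower and 0 to 2 higher, other release-cycle genes from 0 to 8 lower and 0 to 5 higher, probes from 0 to 2463 lower and 0 to 1990 higher, and the median from -0.27 to -0.12. All of the calls on release genes came without Sham replicate 3.

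No called gene turned direction, and 15 genes that were not called did. With normexp Syt2 read -0.15, Unc13b -0.14, Rims1 -0.19, Rims2 -0.025 and Syngr1 -0.055. Quantile normalization gave Snap25 0.062, Unc13b -0.028, Rims1 -0.011, Rims2 -0.042 and Snap91 -0.024, and the deposited values gave 0.063, -0.027, -0.010, -0.040 and -0.022 for the same genes. Median scaling gave Cplx2 -0.033, Unc13b -0.028, Rims1 -0.013, Rims2 -0.049 and Snap91 -0.038. With the percentile over detected probes Doc2a read 0.023, Napa 0.050 and Syn3 0.031. The random block gave Cplx2 -0.020, the scan day block Doc2a 0.026, Napa 0.092, Syn3 0.17 and Sv2c 0.057, and array weights Napa 0.031 and Sv2c 0.020. Without AD replicates 1 and 3, Syt2 read -0.031, Vamp2 -0.0077, Nsf -0.013, Pclo 0.062, Syn3 0.16 and Syngr1 -0.099. Over single arrays left out, Cplx2 ranged from -0.052 to 0.15, Doc2a from -0.11 to 0.026, Napa from -0.098 to 0.092, Rims1 from -0.032 to 0.083, Rims2 from -0.031 to 0.037, Snap91 from -0.046 to 0.061, Sv2c from -0.32 to 0.057, Syn3 from -0.17 to 0.17 and Syngr1 from -0.069 to 0.23.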
